A study of Mus musculus with 4 samples.

Results

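Cytosolic ribosomal protein genes encode the proteins that assemble with ribosomal RNA into the small and large subunits of the ribosome, the machine that makes protein from mRNA. They were taken by symbol: every gene whose name starts with Rpl or Rps and a digit, together with Rpsa, Rplp0, Rplp1 and Rplp2, without names that contain -ps and without the ribosomal S6 kinases, and with at least 10 unique molecular identifiers (UMIs, each a counted transcript molecule) over all cells. Of 27998 genes in the matrix, 84 met the rule. A further 16 names with -ps, which held 0.395% as many UMIs as the 84, and 10 S6 kinases were left out. The UMI minimum removed Rpl10l and Rpl39l, which had 0 UMIs, and Rpl3l, which had 4. The lowest total inside the rule was 8677 UMIs, for Rps19bp1. Rps19bp1, which binds Rps19, and Rpl7l1, a nucleolar relative of Rpl7, are not structural proteins of the ribosome. Rpl6l is annotated as a processed pseudogene of Rpl6, and Rps27rt is a near copy of Rps27, so the counts of these pairs may share reads and are uncertain, and so are counts of other members with processed pseudogenes. The labels do not state that counting used strand.

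Transcripts of most of these genes are among the most abundant in any dividing cell, and most of the proteins they encode are needed in equal numbers. In vertebrates the mRNAs start with a C and a run of pyrimidines, the 5′ terminal oligopyrimidine (TOP) motif, through which the growth-sensing kinase mTORC1 controls their translation. In the intestine, stem cells at the crypt base divide and feed transit amplifying cells, which mature into absorptive enterocytes and into secretory goblet, Paneth and enteroendocrine cells, with tuft cells as a chemosensory type.

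The samples were dissociated small intestines of mice (Mus musculus) kept on a control diet or on a ketogenic diet, which is rich in fat and very low in carbohydrate. Each diet had 2 libraries made with the 10x single-cell 3′ v2 chemistry. The strain, genotype, sex, age and time on diet, and whether a library came from 1 mouse or several, are not stated in the labels used here. P-values thus reflect only how far these libraries spread, which can be technical. The libraries held from 3194 to 4896 cells and from 27316428 to 34106639 UMIs, and pairs of libraries shared from 10 to 26 cell barcodes. Each cell carried the authors' annotation as 1 of 7 epithelial types, and 37 of 42 markers of these types were highest in their own type. The exceptions were Tubb5 of transit amplifying cells, Fabp2 and Vil1 of enterocytes, and Muc2 and Spink4 of goblet cells. The Paneth class held Lyz1 at 10407 CPM (counts per 1000000 UMIs), and it also held more Spink4 (32173 CPM) than goblet cells did (13193 CPM). The 12 immune markers together took 0.805 to 10.1 CPM in a library. Cells with at least 50% of their UMIs from mitochondrially encoded genes were 3.47% and 2.70% of cells on the control diet and 8.14% and 4.63% on the ketogenic diet. Control library 1 stood apart by a low ribosomal protein share in enterocytes, and ketogenic library 2 by the balance between short and long ribosomal protein genes, so the medians by diet are given with single libraries left out.

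Some of the annotated starts of these genes carry a run of pyrimidines. RefSeq promoter windows (GRCm38.p6) were matched for 63 of the 84 genes. The 8 windows here were picked to show a pyrimidine run over the start, for genes with a small or a large difference by diet and for different lengths of the run. In Rpl7a the annotated start is a T and not a C, so that window does not show the motif as defined above. Each reads 5′ to 3′ on the gene's strand, with 20 bases before the annotated start and 20 from it, and capitals mark the unbroken run of C and T that covers the start.
Rpl15, chr14:18270967-18271006, minus strand: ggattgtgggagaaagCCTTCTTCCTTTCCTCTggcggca
Rpl7a, chr2:26910787-26910826, plus strand: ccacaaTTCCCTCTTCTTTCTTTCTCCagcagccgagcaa
Rps6, chr4:86857348-86857387, minus strand: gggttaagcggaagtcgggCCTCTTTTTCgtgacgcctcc
Rps10, chr17:27635225-27635264, minus strand: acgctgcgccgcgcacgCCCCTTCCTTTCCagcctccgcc
Rpl35, chr2:39005112-39005151, minus strand: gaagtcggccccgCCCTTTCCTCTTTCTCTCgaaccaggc
Rpl28, chr7:4792945-4792984, plus strand: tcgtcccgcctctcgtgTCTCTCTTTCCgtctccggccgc
Rps27, chr3:90213629-90213668, minus strand: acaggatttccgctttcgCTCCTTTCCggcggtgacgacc
Rpl38, chr11:114668560-114668599, plus strand: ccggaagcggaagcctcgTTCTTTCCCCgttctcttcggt
The run, counted on both sides of the annotated start, was 21 bases long in Rpl7a, 18 in Rpl35, 17 in Rpl15 and 9 in Rps27. These lengths include bases before the start, so they are not lengths of the motif in the mRNA. A C followed by 4 pyrimidines stood exactly at the annotated start in 18.9% of the 74 windows of these genes and in 2.51% of all 32851 windows. The letters CTTTCC, searched on the gene's strand from 10 bases before to 50 bases after the start, were in 25.7% of their windows and 2.59% of all windows. The letters CCGGAAG, searched on both strands of the whole 300 bases and seen before the start of Rpl38, were in 35.1% and 8.86%, and TATAAA, on both strands, in 9.46% and 13.6%. These matches describe the windows and were not tested against the expression values.

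The 84 genes held 33036360 UMIs, 27.3% of all UMIs in the 4 libraries. The load was spread over many genes, since the 10 most abundant held 21.5% of it and 80 of the 84 had at least 100000 UMIs. In 3′ data each molecule gives 1 UMI whatever its length, so these totals were not divided by length. Among the highest totals were those of Rps18 (766892 UMIs), Rps19 (735762) and Rps2 (713359), all of the small subunit. The lowest were those of Rps19bp1, Rpl7l1 (9321), Rps27rt (19172), Rpl6l (27054) and Rpl15 (108294), so Rpl15 was the least abundant structural protein gene without a known near copy among them. The 33 small subunit genes gave 43.6% and 43.9% of ribosomal protein UMIs on the control diet and 43.7% and 43.9% on the ketogenic diet, and this balance stayed between 42.2% and 44.3% in every cell type and library.

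In summed UMIs, stem cells carried the largest ribosomal protein share of any type. It was 31.6% and 33.7% of UMIs on the control diet and 31.7% and 32.7% on the ketogenic diet, a mean of 32.4% ± 0.98 (SD, n = 4). Transit amplifying cells followed with 29.1% ± 1.40, goblet cells with 26.9% ± 0.71, enterocytes with 26.5% ± 2.14, enteroendocrine cells with 26.1% ± 1.83, tuft cells with 24.9% ± 0.63 and the Paneth class with 22.5% ± 5.55. Stem cells lay above enterocytes in each of the 4 libraries. The order is not that of the median cell, for which stem cells had 28.4% and 33.7% on the control diet and 25.3% and 31.9% on the ketogenic diet. The median transit amplifying cell of ketogenic 1 had 30.1% and the median cell of the Paneth class in control 1 29.4%, both above the stem cells of the same library. Neighbours in this order from goblet cells to the Paneth class differed by less than the larger SD of each pair. Tuft cells, however, lay further from both of their neighbours than their own SD of 0.63. Cell types were assigned from the same expression values, so the differences between types are a description with no test.

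**Figure D1:**
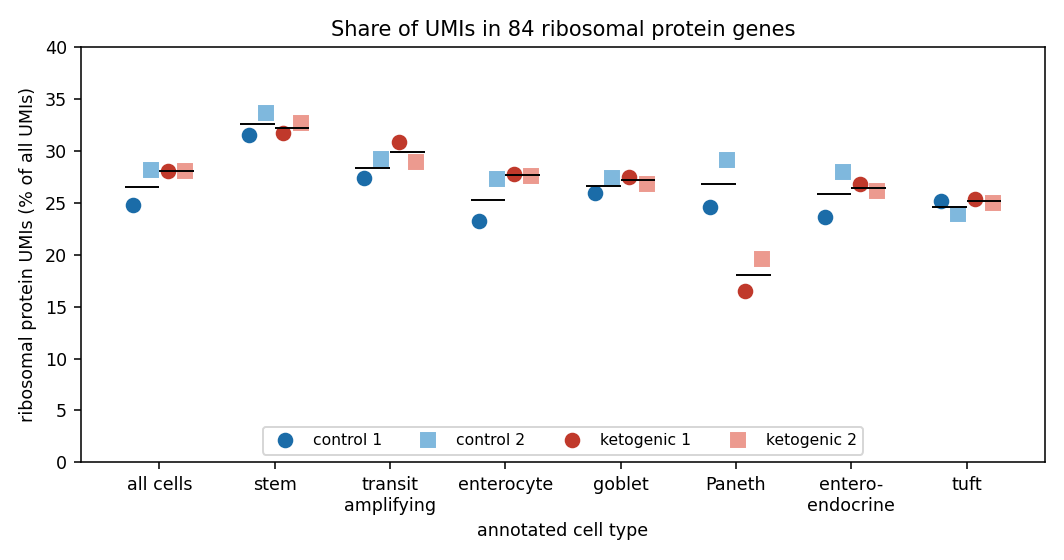
Ribosomal protein UMIs as a percentage of all UMIs (y axis) for all cells and for each annotated cell type (x axis), with 1 point per library and short lines for the mean of the 2 libraries of a diet. Stem cells sit between 31.6% and 33.7%, above every other type in the same library, and the Paneth class lies at 16.5% and 19.6% on the ketogenic diet.

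Gene by gene, 79 of the 84 had more CPM in stem cells than in enterocytes in all 4 libraries, and the median ratio was 1.23. Among the largest ratios were those of Rpl3, a core protein of the peptidyl transferase centre (5451 ± 285 CPM in stem cells and 3910 ± 442 in enterocytes, SD, n = 4, ratio 1.39), Rpl36a (1.35) and Rpl10a (1.33). Rps19, whose loss causes Diamond-Blackfan anaemia in humans, had a ratio of 1.32, and Rps6, the substrate of the S6 kinases, one of 1.30. Rpl5 and Rpl11, which hold back Mdm2 when ribosome assembly fails, had ratios of 1.24 and 1.20. The stalk genes were close together, with 1.25 for Rplp0 and 1.20 for both Rplp1 and Rplp2, and Rpsa, at the head of the small subunit, had 1.24. The direction was the same for 80 of 84 genes in stem cells under library totals, TMM, RLE and totals without mitochondrial genes, whereas other genes of at least 50 CPM had a median log2 ratio of -0.14 to -0.08 under these scalings. For goblet cells and the Paneth class the direction against enterocytes depended on the scaling: 73 of 84 genes were higher in goblet cells under TMM and 12 under totals without mitochondrial genes, and 7 were higher in the Paneth class under library totals and 78 under RLE. In enteroendocrine and tuft cells most genes were lower under all 4 scalings, with 2 to 38 and 0 to 30 of 84 higher.

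The 4 genes that were lower in stem cells than in enterocytes in every library included both non-structural genes. Rps27l, a paralog of Rps27 and a p53 target, had 694 and 793 CPM in control stem cells and 761 and 741 in ketogenic ones, against 986, 1003, 920 and 915 in enterocytes. Its ratio was 0.78, whereas that of Rps27 was 1.26. Rpl36al, a paralog of Rpl36a, had a ratio of 0.88 against 1.35 for Rpl36a. Rps19bp1 and Rpl7l1 had ratios of 0.83 and 0.89. The remaining gene, Rpl29, was higher in stem cells in 3 of 4 libraries.

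To see which genes held a different place within the family, each gene was expressed as a part of the ribosomal protein UMIs, which removes the overall share. On this scale 84 of 84 genes in transit amplifying cells, 82 in goblet cells, 80 in stem cells, 80 in tuft cells, 76 in the Paneth class and 74 in enteroendocrine cells lay within 0.8 to 1.25 times their enterocyte level. The exceptions were named after their values were seen. Rps2 was the lowest gene in goblet cells (0.82 times the enterocyte level), the Paneth class (0.71) and tuft cells (0.68), and it had 0.59 times that level in enteroendocrine cells. Its ranges over the 4 libraries were 0.80 to 0.84, 0.66 to 0.75, 0.66 to 0.71 and 0.55 to 0.64. Rpl22l1, the paralog of the RNA-binding protein gene Rpl22, was the lowest gene in enteroendocrine cells. It had 949 and 1024 CPM on the control diet and 957 and 1015 in the ketogenic ones, against 1526, 1971, 1758 and 1766 in enterocytes. The libraries of these types did not overlap. Its family-scaled ratio was 0.57 in enteroendocrine and 0.72 in tuft cells, and Rpl22 itself stood at 1186 ± 98 CPM in enteroendocrine cells and 1242 ± 95 in enterocytes.

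Other genes were high in secretory types. Rpl10, which joins the large subunit late in its assembly, was 1.26 times the enterocyte level in goblet cells, 1.38 in the Paneth class and 1.24 in enteroendocrine cells. Rpl41, the shortest member with 25 residues, was 1.24 times that level in goblet cells and 1.50 in the Paneth class. Rpl36al was at 1.25 in both of these types but at 0.71 in stem and 0.79 in enteroendocrine cells. Rpl26 reached 1.37 and Rpl37a 1.30 in enteroendocrine cells, where Rplp1 (0.75) and Rpl12 (0.76), both of the stalk region, were low. Rps27 was at 1.27 in tuft cells, 1.25 in the Paneth class and 1.22 in goblet and enteroendocrine cells, and Rps24 was at 1.34 in the Paneth class. Rps27l was at 0.63 in stem, 0.67 in enteroendocrine and 0.78 in tuft cells.

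**Figure D2:**
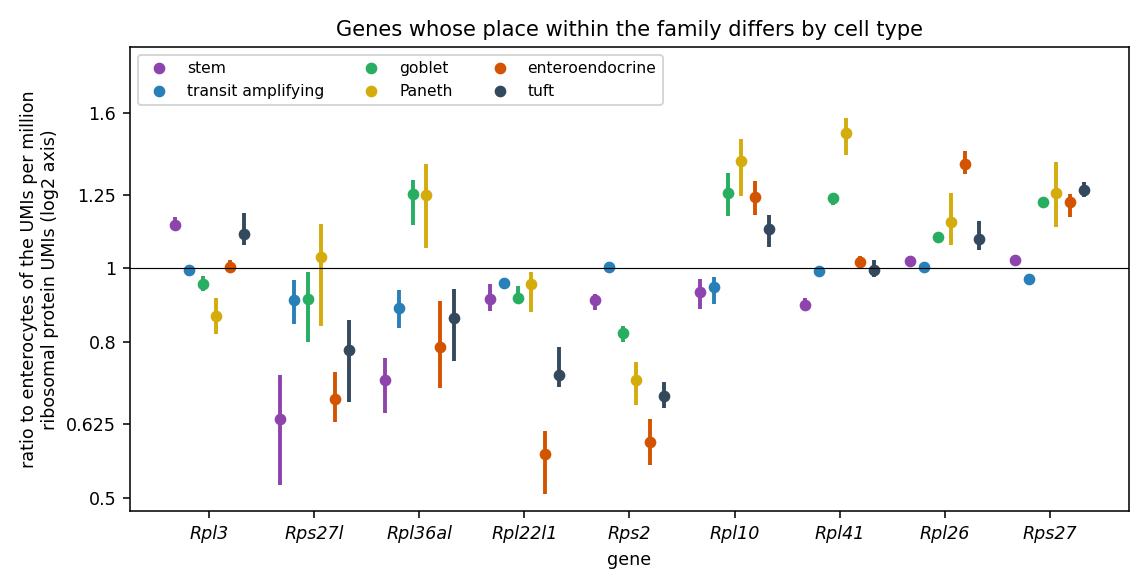
Part of the ribosomal protein UMIs, relative to enterocytes (y axis, log2 scale), for 9 genes (x axis) in 6 other cell types; points are ratios of means over 4 libraries and lines span the lowest and highest library. Rps2 and Rpl22l1 lie at 0.59 and 0.57 in enteroendocrine cells, Rpl41 at 1.50 in the Paneth class, and Rps27l is at 0.63 in stem cells.

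The comparison of diets asked whether the ketogenic diet changed these genes. None of the 84 passed the test in all cells or in any of the 7 types (edgeR quasi-likelihood test on counts summed per library, Benjamini-Hochberg adjustment over all genes tested, threshold 0.05), and none passed with DESeq2. The share of all tested genes called by edgeR was 0.172% in all cells, 0.336% in stem cells, 0.715% in transit amplifying cells, 0.18% in enterocytes, 0.521% in goblet cells, 0.44% in the Paneth class, 0.0582% in enteroendocrine cells and 0.0144% in tuft cells. Leaving out 1 library gave member calls in 4 types. There was 1 in transit amplifying cells without control 1 (2.12% of all genes called), and in goblet cells 1 without control 2 (1.73%) and 1 without ketogenic 1 (0.964%). Enteroendocrine cells had 2 without control 1 (0.478%) and 6 without control 2 (1.3%), and tuft cells had 5 without ketogenic 1 (0.4%). At an unadjusted p under 0.05, 3 of the 84 were higher and 0 lower on the ketogenic diet in all cells, beside 5.62% and 5.33% of all genes. In stem cells 0 were higher and 1 lower (3.61% and 2.82% of all genes), in transit amplifying cells 5 and 0 (4.77% and 4.44%), and in enterocytes 2 and 0 (4.46% and 5.45%). In goblet cells 2 were higher and 0 lower (4.43% and 4.54%), in the Paneth class 0 and 0 (4.6% and 3.08%), in enteroendocrine cells 0 and 0 (2.18% and 2.43%), and in tuft cells 1 and 3 (2.59% and 2.76%). The 95% intervals of the log2 fold changes reached from -0.53 to 0.54 in all cells, from -0.57 to 0.45 in stem cells and from -0.53 to 0.64 in enterocytes, so larger differences lay outside every gene's interval there.

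Differences were small, but in some sums most of the 84 shared a direction. Higher on the ketogenic diet were 61 in all cells, 38 in stem cells, 64 in transit amplifying cells and 70 in enterocytes. In goblet cells 48 were higher, in the Paneth class 13, in enteroendocrine cells 60 and in tuft cells 46. Over all genes tested the part that was higher lay between 49.0% and 53.1% in these sums. The median log2 fold change of the 84 was 0.07 in all cells (0.01 for all genes tested), -0.01 in stem cells (0.00), 0.10 in transit amplifying cells (0.00), 0.14 in enterocytes (0.02), 0.01 in goblet cells (0.00), -0.11 in the Paneth class (-0.01), 0.06 in enteroendocrine cells (0.00) and 0.02 in tuft cells (-0.00). Leaving out 1 library moved these medians. Without control 1 the median was -0.04 in all cells, -0.09 in stem cells, 0.03 in transit amplifying cells, -0.07 in goblet cells and -0.14 in enteroendocrine cells, where 9 of 84 were then higher. Without control 2 it was 0.16, 0.08, 0.17, 0.09 and 0.26 in the same order, with 81 of 84 higher in enteroendocrine cells. Without ketogenic 1 it was 0.01 in transit amplifying and -0.03 in goblet cells, and without ketogenic 2 it was 0.17 and 0.05. In tuft cells it ranged from 0.01 to 0.05. In all cells the 2 diets did not overlap for 19 genes that were higher on the ketogenic diet, 22.6% of the 84 against 22.4% of all genes, and for 4 that were lower, 4.76% against 21.1%. In enterocytes 32 genes were higher without overlap (38.1% against 22.9%) and 3 lower (3.57% against 20.5%). In stem cells 4 were higher (4.76% against 17.4%) and 3 lower (3.57% against 17.5%). In transit amplifying cells 29 were higher (34.5% against 20.1%) and 3 lower (3.57% against 19.6%), and in goblet cells 17 were higher (20.2% against 19.4%) and 3 lower (3.57% against 19.1%). The Paneth class had 3 higher (3.57% against 19.1%) and 23 lower (27.4% against 20.1%). Enteroendocrine cells had 5 higher (5.95% against 16.8%) and 1 lower (1.19% against 16.1%), and tuft cells 24 higher (28.6% against 17.5%) and 10 lower (11.9% against 16.5%). The 84 genes move together within a library, so these counts are not independent.

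The enterocyte difference rested on control library 1. Ribosomal protein genes took 23.3% and 27.3% of enterocyte UMIs on the control diet and 27.8% and 27.6% on the ketogenic diet. The diets did not overlap, but control 2 lay much closer to the ketogenic libraries than to control 1. The difference of means was 2.40 percentage points, beside an SD of 2.83 between the control libraries and 0.13 between the ketogenic ones. The median log2 fold change of the 84 in enterocytes was 0.02 without control 1, with 48 genes higher, and 0.26 without control 2, with 77 higher. In all cells the share was 24.8% and 28.2% on the control diet and 28.1% in both ketogenic libraries, and the median was -0.04 without control 1. The median UMI count per enterocyte was 8414 and 7342 on the control diet and 9323 and 9629 on the ketogenic diet, and the mitochondrial share was 12.1%, 11.0%, 13.3% and 11.2%. The part of depth and of mitochondrial share in the difference was not tested.

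In the Paneth class the share went the other way, at 24.6% and 29.1% on the control diet and 16.5% and 19.6% on the ketogenic diet, a difference of -8.79 percentage points. In the same sums 6 Paneth markers, of which Defa24 was the most abundant, took 78790 and 44983 CPM in the control and 204825 and 146975 CPM on the ketogenic diet. With library totals only, the median log2 fold change of the 84 in this class was -0.60, beside -0.51 over all genes tested, and with TMM it was -0.11, or 0.03 without control 2. Without the 6% of cells with the most UMIs in each library the share was 28.6% ± 0.72 (SD, n = 2) and 25.7% ± 1.10, a difference of -2.95 points. The median cell of the class had a share of 29.4%, 29.7%, 26.7% and 28.0% in the same order of libraries. The class held only 35 to 56 cells per library, and the part of the Paneth transcripts in the difference was not tested.

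Rpl15, a large subunit protein gene with the long pyrimidine run shown above, had the highest log2 fold change in all cells, stem cells and enterocytes. In all cells it had 805 and 810 TMM-adjusted CPM on the control diet and 1027 and 963 on the ketogenic diet. Both ketogenic libraries lay above both controls, with a log2 fold change of 0.30 ± 0.09 (SE, edgeR adjusted p = 0.351). In enterocytes its values were 749 and 772 on the control diet and 1039 and 946 on the ketogenic diet, a log2 fold change of 0.38 ± 0.11 (edgeR adjusted p = 0.294). In stem cells they were 1010, 991, 1165 and 1143, a change of 0.21 ± 0.12 (edgeR adjusted p = 0.837). Its diets did not overlap in 6 of the 8 sums, all drawn from the same 4 libraries. In either direction, the diets also did not overlap for Rpl7a in 8 sums, Rplp0 in 7, and Rpl10 and Rps19bp1 in 6 each. Among all genes, 22.4% were higher and 21.1% lower on the ketogenic diet without overlap in all cells. The share of all genes without overlap in several sums was not worked out, so these counts of sums have no background. Leaving out any library kept the enterocyte change of Rpl15 between 0.31 and 0.45.

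Rpl6l, the pseudogene copy of Rpl6, was next in all cells with 206 and 199 CPM on the control diet and 252 and 243 on the ketogenic diet, a log2 fold change of 0.29 ± 0.09 (edgeR adjusted p = 0.342). Rpl6 itself had 2531 and 2937 CPM in control enterocytes and 3160 and 3056 in ketogenic ones, a change of 0.19 ± 0.13 (edgeR adjusted p = 0.661). Reads of this pair may be shared, as stated above. In transit amplifying cells Rpl6l had the smallest adjusted p of any of the 84 in any fit, 0.165 by edgeR, with a change of 0.37 ± 0.10. Rplp0, the scaffold of the stalk that recruits elongation factors, had 4995 and 5247 CPM on the control diet and 6111 and 6075 on the ketogenic diet in all cells, with no overlap and a log2 fold change of 0.25 ± 0.10 (edgeR adjusted p = 0.452). Rpl7a and Rpl4 completed the 5 highest in all cells with 0.19 each. In stem cells the next were Rplp0 and Rpl6l (0.15 each), Rpl7a (0.15) and Rpl10 (0.14), and in enterocytes Rpl6l (0.35), Rplp0 (0.31), Rpl12 (0.27) and Rps7 (0.26).

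Rpl41, with 25 residues, had the lowest change in all cells, stem cells and enterocytes. It had 5723 and 6417 CPM on the control diet and 5981 and 4710 on the ketogenic diet in all cells. Ketogenic 1 lay between the control libraries and ketogenic 2 below them, and the log2 fold change was -0.18 ± 0.15 (edgeR adjusted p = 0.690). In stem cells it had 6206, 6902, 5825 and 4873 CPM, a change of -0.29 ± 0.14 (edgeR adjusted p = 0.720). Rps28, a small subunit protein of 69 residues, had 2439 and 2526 CPM in control stem cells and 2441 and 1894 in ketogenic ones, a change of -0.20 ± 0.13 (edgeR adjusted p = 0.884). Only ketogenic 2 was low. Rpl36, Rpl38 and Rps27l were also among the 5 lowest in all cells, at -0.12, -0.13 and -0.13, with Rps19bp1 at -0.12. Rpl36 and Rps19bp1 were at -0.21 and -0.24 in stem cells, with Rps27 at -0.20. In enterocytes the lowest were Rpl41 (-0.12), Rps27l (-0.11), Rpl7l1 and Rpl38 (-0.08 each) and Rpl36al (-0.05). Without ketogenic 2 the enterocyte change was 0.06 for Rpl41, 0.05 for Rpl38 and 0.03 for Rpl36al, and the all-cell change of Rpl36 was 0.03.

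**Figure D3:**
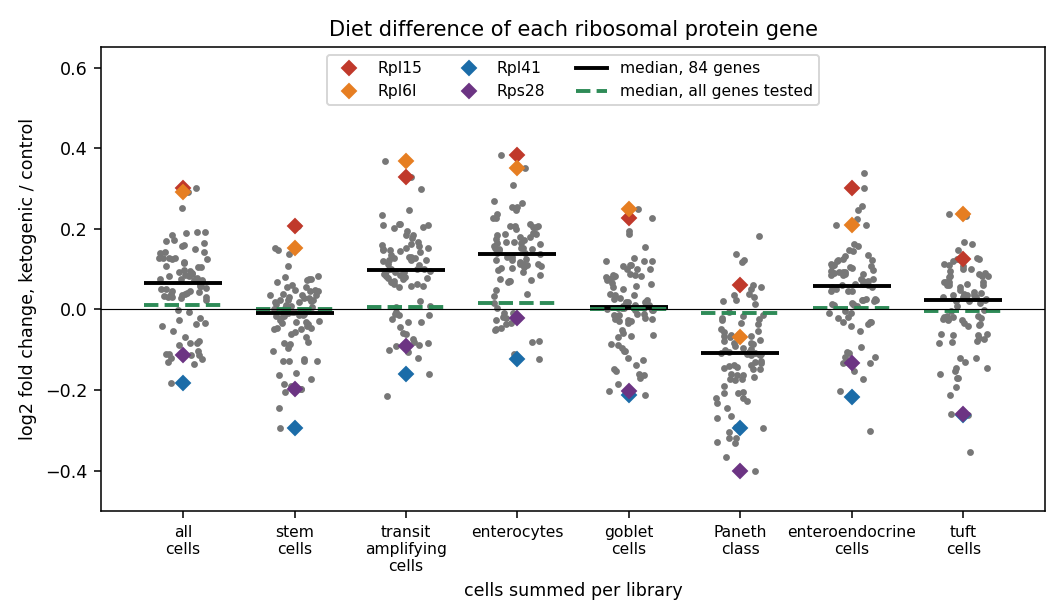
Log2 fold change of ketogenic over control (y axis) for each of the 84 genes in sums over all cells and over each type (x axis); the solid line is their median and the dashed line the median of all genes tested. The genes lie between -0.40 and 0.38 and none passed the threshold; Rpl15 and Rpl6l sit near the top in most sums and Rpl41 and Rps28 near the bottom.

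None of the other named genes passed the test. Rps6 had 3716 and 4495 CPM in control enterocytes and 4820 and 4692 in ketogenic ones, a log2 fold change of 0.21 ± 0.14 (edgeR adjusted p = 0.648), and 0.04 ± 0.13 in stem cells. In enterocytes Rpsa was at 0.21, Rpl5 at 0.19, Rplp1 at 0.18, Rpl11 at 0.15, Rps19 at 0.14 and Rplp2 at 0.03. In stem cells the same genes were at 0.05, 0.06, 0.03, 0.02, -0.04 and -0.10. The paralogs Rpl22 and Rpl22l1 were at -0.05 and -0.19 in stem cells and at 0.12 and 0.02 in enterocytes, with standard errors of 0.12 to 0.15. Rps27rt, the near copy of Rps27, had 165 and 132 CPM in control enterocytes and 192 and 124 in ketogenic ones, so the diets overlapped.

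Whether the diet difference itself differed between stem cells and enterocytes was tested in 1 fit that held all 8 sums of these types and blocked on library. None of the 84 passed (edgeR quasi-likelihood test, 0.259% of 11570 genes called), and 0 had an unadjusted p under 0.05 (6.94% of all genes). The difference was lower in stem cells for 82 of the 84, with a median of -0.13 on the log2 scale against 0.02 over all genes. The smallest adjusted p among the 84 was 0.722 by edgeR. The median was -0.22 without ketogenic 2 and -0.07 without ketogenic 1.

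Ketogenic library 2 stood apart from the other 3 libraries by gene length in every cell type. The 83 genes with an annotated coding sequence were ordered by its length, and the 21 shortest (75 to 357 bases) were set beside the 22 longest (612 to 1257 bases). Over all cells the longest had 1.47 and 1.49 times the UMIs of the shortest on the control diet, 1.55 in ketogenic 1 and 1.87 in ketogenic 2. In stem cells the same ratios were 1.55, 1.54, 1.58 and 1.94, and in enterocytes 1.46, 1.49, 1.54 and 1.86. Ketogenic 2 had the highest ratio in all 7 types, with 1.68 in the Paneth class beside 1.23 to 1.34 in the other libraries, and 1.98 in tuft cells beside 1.50 to 1.61.

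Against the mean of the other 3 libraries, ketogenic 2 had a median log2 difference of -0.20 for the 21 shortest and 0.13 for the 22 longest over all cells. The Spearman correlation of this difference with coding length was 0.88 over the 83 genes, which share each library's depth and preparation, and it ranged from 0.82 to 0.88 over the 7 types. Within the ketogenic diet, ketogenic 2 minus ketogenic 1 correlated at 0.85 with length, whereas control 1 minus control 2 correlated at -0.03. Abundant genes outside the family (mean log2 CPM 8 or more, no longer than the longest member) gave 0.35 in ketogenic 2 and -0.28 in ketogenic 1 over 332 genes. The mean against which ketogenic 1 was set includes ketogenic 2, so the -0.28 is not a separate pattern of ketogenic 1. Among these abundant genes the 92 in the length range of the shortest members had a median difference of -0.17 in ketogenic 2, and the 124 in that of the longest -0.00. The difference of diet means correlated at 0.79 with length in all cells, and ketogenic 1 minus the control mean at 0.37. Ketogenic 2 had the highest median UMI count per cell, 9040, and a mitochondrial share of 9.82% against 9.91% to 11.0% in the others; their part in the pattern was not tested.

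**Figure D4:**
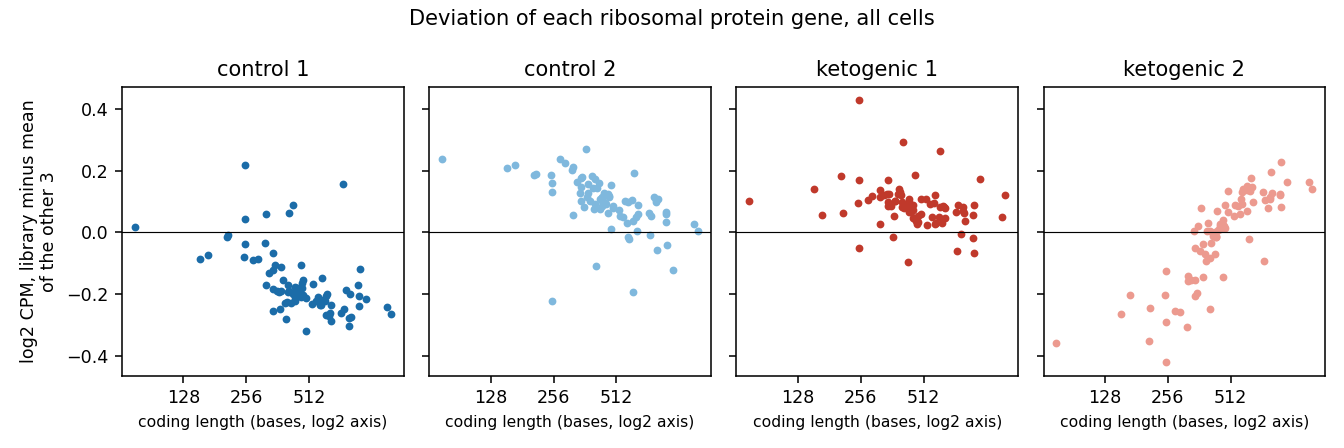
Log2 CPM of each of 83 genes in a library minus its mean in the other 3 (y axis) against coding length in bases (x axis, log2 scale), over all cells, in 1 panel per library. In ketogenic 2 short genes lie below 0 and long genes above it (Spearman 0.88). In the other libraries the correlation is negative, from -0.68 to -0.39, but the mean each is set against includes ketogenic 2. Set against the control mean alone, ketogenic 1 correlates at 0.37 with length.

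Within enterocytes and stem cells the share was lower where mitochondrial UMIs were above 10%. In enterocytes with 5 to 10% mitochondrial UMIs ribosomal protein genes took 26.4% and 30.2% of UMIs on the control diet and 32.2% and 30.4% on the ketogenic diet, and in enterocytes with 50% or more they took 5.08%, 5.25%, 5.41% and 6.04%. The difference was also there among UMIs that are not mitochondrial, from between 28.4% and 34.6% to between 12.6% and 15.6%. In stem cells the share was 37.0% to 38.2% at 5 to 10% mitochondrial UMIs and 15.2% to 16.8% at 20 to 50%. Control 1 had the lowest share of the 4 libraries in each mitochondrial range of enterocytes. Limited to cells under 10% mitochondrial UMIs, the share was 37.4% ± 0.14 (SD, n = 2) on the control and 37.7% ± 0.93 on the ketogenic diet in stem cells, and 28.8% ± 2.49 and 31.6% ± 1.09 in enterocytes.

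**Figure D5:**
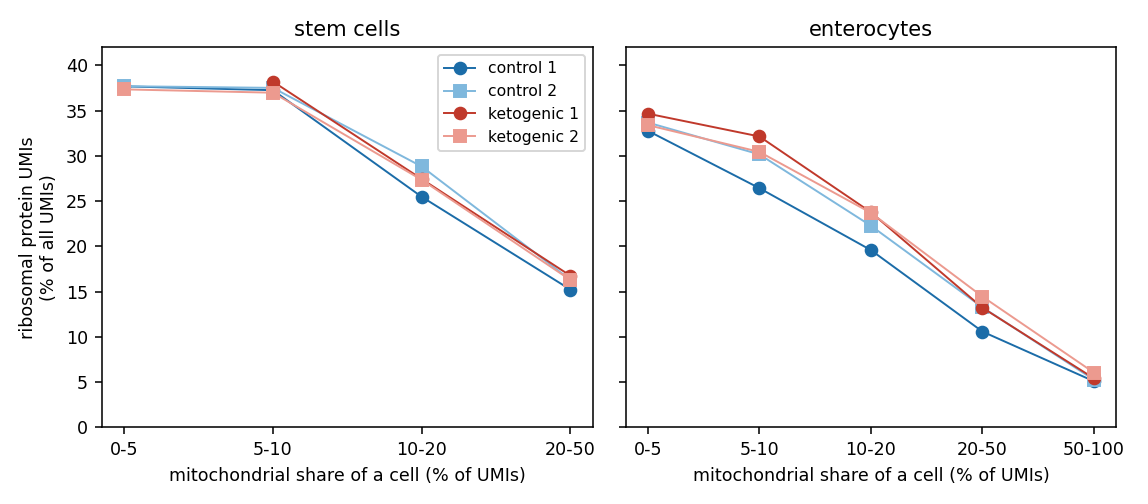
Ribosomal protein UMIs as a percentage of all UMIs (y axis) in cells grouped by their mitochondrial share (x axis), for stem cells and enterocytes, with 1 line per library; groups of under 20 cells are not drawn. The share is 32.8% to 34.7% in enterocytes under 5% and 5.08% to 6.04% at 50% or more, and in stem cells 15.2% to 16.8% at 20 to 50%.

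The same cells were also sorted by depth. In the 20% of stem cells with the fewest UMIs, with a median of 2242 to 2590 per cell, the share was 12.9% to 15.6%, and in the 20% with the most it was 35.6% to 37.7%. In enterocytes the 20% with the fewest UMIs had 8.68% to 12.0%, the middle 20% had 27.5% to 32.9%, and the 20% with the most were lower again at 23.2% to 28.9%. Enterocytes were also ranked by transcripts of the villus tip (Apoa4, Ada, Nt5e and Slc28a2), a list chosen with these data in view. Most other enterocytes held no UMI of these genes, 87.1% to 99.1% of them by library. The top 20% began at only 0.00782% to 0.0173% of the UMIs that are neither ribosomal protein nor mitochondrial. That group is therefore not a set of identified villus tip cells. In the top 20% the share was 20.6% and 24.1% on the control diet and 21.5% and 26.1% on the ketogenic diet, against 24.0%, 28.1%, 29.1% and 28.0% in the rest. The top cells of ketogenic 1 had 18.7% mitochondrial UMIs against 12.1% in the rest of that library, and those of the other libraries 10.8% to 12.1%. The part of mitochondrial share and depth in this difference was not tested.

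Genes that work with the ribosome were read in the same fits, and none of any list passed the test in any of the 8 sums by edgeR or by DESeq2. The lists were chosen with earlier results of these data known. Of the ribosomal proteins with other names, 3 were in the matrix. Fau, the fusion that yields a small subunit protein, had a log2 fold change of -0.04 ± 0.11 (SE) in all cells. Gnb2l1, the scaffold Rack1, had one of 0.09 ± 0.12. The remaining gene had the highest, 0.27. It was the only 1 of the 3 with an unadjusted p under 0.05 by edgeR, beside 5.62% of all genes that were higher at that limit.

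The 12 elongation factors and other TOP genes had a median log2 fold change of 0.18 in all cells, with 12 of 12 higher, and 0.23 in enterocytes, with 12 of 12 higher. In stem cells the median was 0.08, with 11 of 12 higher. Over all genes 52.6%, 53.1% and 50.1% were higher in these sums. At an unadjusted p under 0.05, 2 of 12 were higher in all cells (5.62% of all genes), 1 in enterocytes (4.46%) and 0 in stem cells (3.61%). Eef1a1, which delivers aminoacyl-tRNA, had 5631 and 6682 CPM in control enterocytes and 7116 and 6939 in ketogenic ones, a change of 0.19 ± 0.15 (edgeR adjusted p = 0.687). The nucleolar gene Npm1 was at 0.34 ± 0.17 in enterocytes and 0.15 ± 0.13 in stem cells, and Ncl at 0.17 ± 0.17 and -0.03 ± 0.12.

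The 38 ribosome biogenesis genes had medians of -0.04 in all cells, -0.04 in stem cells and 0.09 in enterocytes, and the 15 RNA polymerase I genes -0.03, -0.12 and 0.11. The 30 initiation factors were at -0.01, -0.04 and 0.01. The 20 growth regulators were at 0.00, 0.01 and 0.05, with 11 higher and 9 lower in enterocytes. At an unadjusted p under 0.05 by edgeR, 1 of them was higher and 1 lower in all cells, beside 5.62% and 5.33% of all genes. Myc, a transcription factor that drives ribosome production, had 29.4 and 36.6 CPM in control enterocytes and 45.0 and 56.0 in ketogenic ones. The diets did not overlap, and 22.9% of all genes were higher without overlap in enterocytes. Myc had a change of 0.61 ± 0.16 there (edgeR adjusted p = 0.258), the highest of this list. In stem cells it had 75.1, 64.2, 81.7 and 85.0 CPM, a change of 0.27 ± 0.14 (edgeR adjusted p = 0.788). Mitochondrial ribosomal proteins, which build a separate ribosome, had a median of -0.11 in all cells. Of 77, 68 were lower and 9 higher, whereas 52.6% of all genes were higher. At an unadjusted p under 0.05 by edgeR, 10 were lower, beside 5.33% of all genes. No value with a library left out is given for this list or for the TOP genes, so their directions may rest on single libraries.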

How the data were processed

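Mouse small intestine from both diets was profiled with 10x single-cell 3′ v2 libraries, 2 per diet, per the labels' protocols. The authors deposited untransformed UMI counts for each gene in each cell, and a cell table that names library and type. Cell Ranger 2.1.0 and mm10 are named in the submitters' processing notes; how cells were filtered, doublets handled and types assigned is not given in the labels, and no doublet caller was run. The counts of a library were added up over its cells, in all and by type, since cells are no replicates; each sum held at least 20 cells. The quasi-likelihood test of edgeR 4.0.16 under R 4.3.3, after TMM scaling and filterByExpr by diet, compared the ketogenic with the control diet, with Benjamini-Hochberg adjustment over all genes that passed the filter; all 84 members passed in all 8 fits. CPM in the diet comparison use TMM-adjusted totals, and CPM by cell type use plain totals. The SE of a fold change was worked out from its F statistic.

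The members, the gene lists and the tests were chosen with earlier results of these data known. Named genes are the 5 highest and 5 lowest changes over all cells and in stem cells or enterocytes, the 5 highest and lowest UMI totals, paralog pairs, the extremes of the stem to enterocyte ratio and a fixed set of ribosomal and growth genes; the paralog Rps4l was not found among the names, and others outside the rule are said to be so. Alternatives were DESeq2 1.42.0, RLE, library totals, TMM without the members, no filter, no mitochondrial genes, cells under 10% mitochondrial UMIs, no cells in the top 6% by UMIs, thinning, an equal mix of types, a replicate block and each library left out in turn. The test was also run on simulated counts, and the outcome of that run is not reported here. Lengths and gene types come from GENCODE M21, on the same build, matched by symbol; the labels do not give the annotation used for counting. Replicate libraries differed beyond sampling noise (chi-square over genes divided by its degrees of freedom, 30.1 for control and 22.6 for ketogenic). Some genes that the naming rule takes are not reported here.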

Additional observations from a re-analysis of the deposited data

Results flagged for a closer look

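The ribosomal protein share of UMIs moved in opposite directions by diet in enterocytes and in the Paneth class, without overlap of the diets in either. It was 2.40 percentage points higher on the ketogenic diet in enterocytes and changed by -8.79 points in the Paneth class. Without the 6% of cells with the most UMIs in each library the Paneth difference was -2.95 points. The median log2 fold change of the 84 genes in enterocytes was 0.02 without control 1. The difference between the 2 types was not tested. In the Paneth class 6 Paneth markers took 44983 to 78790 CPM in the control libraries and 146975 to 204825 CPM in the ketogenic libraries, and their part in the result was not tested. In enterocytes the share was 23.3% in control 1, 27.3% in control 2, 27.8% in ketogenic 1 and 27.6% in ketogenic 2.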

How the results depend on the processing

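No member was called in all cells, stem cells, enterocytes or the Paneth class under any alternative run there. Elsewhere the count of 0 moved under a few. The replicate block gave 1 call in transit amplifying cells (Rpl6l) and no call in the other sums. That fit called 200 of 10069 genes in transit amplifying cells, and the main fit 72. The deviations of same-numbered libraries correlated at -0.01 over all genes and 0.33 over the members in all cells. The labels do not say that a number marks a shared batch, so no pairing was assumed. Leaving out each library gave 0 to 1 calls in transit amplifying cells (Rpl6l, without control 1) and 0 to 1 in goblet cells (Rpl10 rose without control 2, Rps28 fell without ketogenic 1). It gave 0 to 6 in enteroendocrine cells (Rpl37a and Rpl41 fell without control 1, and Rpl10, Rpl7a, Rpl9, Rps10, Rps2 and Rps3 rose without control 2) and 0 to 5 in tuft cells (Rpl36, Rpl37, Rpl41, Rps27 and Rps28 fell without ketogenic 1). The lone library of a diet is then assumed to vary like the other 2. Of the genes with the 5 highest and 5 lowest changes in all cells, stem cells and enterocytes, 4 values turned sign, all without ketogenic 2, to 0.033 for Rpl36 in all cells (lowest value without another library -0.30) and, in enterocytes, to 0.056 for Rpl41 (-0.34), 0.051 for Rpl38 (-0.23) and 0.027 for Rpl36al (-0.14). The median of the members turned to -0.04 in all cells without control 1. The all-cell share difference was 1.55 points (SD between libraries of a diet 1.70), 1.37 to 1.75 under the other settings, and -0.15 to 3.25 when a library was left out, the lowest without control 1. The count of all genes called in all cells rose from 22 with edgeR to 211 with DESeq2 and 407 with no filter. Tests of 2 against 2 libraries limit every statement on diet.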
